A study of Mus musculus with 12 samples.

Results

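The ligands of transforming growth factor β (TGFβ), their receptors and the latent TGFβ binding proteins (LTBPs) were followed as 10 genes, *Tgfb1*, *Tgfb2*, *Tgfb3*, *Tgfbr1*, *Tgfbr2*, *Tgfbr3*, *Ltbp1*, *Ltbp2*, *Ltbp3* and *Ltbp4*, taken by name from the 54352 gene symbols of a table of read counts. All 10 were in the table, and all 10 passed the filter on low counts in each of the 5 comparisons. The RNA came from 12 cultures of primary fibroblasts that make up the mouse aortic adventitia, the sheath around the vessel, with 3 cultures for each combination of vascular site (ascending or descending) and treatment. The 4 groups were descending control, descending TGFβ, ascending control and ascending TGFβ, where control means solute without TGFβ (0 ng/mL) and TGFβ means mouse TGFβ at 10 ng/mL, both for 48 h. All donors were labelled as WT C57Bl/6 animals of 14 weeks, the cells had been grown out of minced adventitia and passaged, and all libraries carried the same batch label. The labels do not say whether the replicates of a group came from separate animals, so the p-values measure only the spread between these cultures, which may be technical. The comparisons ask how the genes that make, hold and receive TGFβ respond to added TGFβ, and whether that response differs between the ascending and the descending aorta.

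TGFβ is secreted in a latent form. The ligand stays bound to its own propeptide, and an LTBP ties this complex to fibrillin and fibronectin in the extracellular matrix until integrins, proteases or thrombospondin release it. Free ligand is bound by the type II receptor TGFBR2, which recruits and phosphorylates the type I receptor TGFBR1, and TGFBR1 in turn phosphorylates SMAD2 and SMAD3, while the co-receptor TGFBR3 (betaglycan) presents ligand, TGFβ2 above all. Inherited variants of several of these genes cause aneurysm of the aorta in people, as in Loeys-Dietz syndrome.

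Library totals ran from 16250126 to 23892943 counted reads. One library stood apart. Descending control replicate 3 had 13031 genes with a count against 19337 to 20931 in the other 11 libraries, and 11% mitochondrial counts against 0.703% to 1.03%. In this library *Tgfb2* and *Tgfbr1* were 2.36 and 2.17 times the mean of the other two descending controls, while *Ltbp2*, *Ltbp3* and *Ltbp4* were 0.471, 0.547 and 0.509 times that mean. *Tgfb1*, *Tgfbr2*, *Tgfbr3* and *Ltbp1* lay within 1.00 to 1.03 times it, and *Tgfb3* at 0.844. The main results of the 10 genes that use this library are therefore given with and without it, and the part that its quality plays was not tested.

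All 8 fibroblast markers were detected in each group, with a summed level of 17310 to 28590 normalized CPM (counts scaled to a common library size after TMM normalization), most of it *Col1a1*, *Col1a2* and *Vim*. They did not move as one. *Col1a1* was at 5426 to 6844 in control and 10720 to 14200 in TGFβ libraries, while *Pdgfra* was at 180.5 to 379.9 and 52.0 to 90.6, *Dcn* at 112.2 to 273.2 and 35.8 to 88.5, and *Lum* at 5.70 to 39.7 and 0.709 to 2.83. *Thy1* was at 1003 to 1713 in descending and 607.8 to 621.5 in ascending control, and at 586.9 to 638.8 and 321.5 to 337.3 with TGFβ. Of the markers of other cell types, the 6 smooth muscle genes, which include the TGFβ target *Acta2*, summed to 1577 to 2549 in control and 5093 to 8367 in TGFβ libraries, nearly all of it *Acta2* (1425 to 2349 and 4899 to 8049). Its other members were mixed. *Cnn1* was higher with TGFβ at each site (10.7 to 35.3 in control and 42.1 to 104.8 in TGFβ libraries) and *Des* lower (1.56 to 3.35 and 0.520 to 1.78). *Smtn* was higher with TGFβ at each site, and *Lmod1* in ascending fibroblasts, where *Myh11* was lower (23.2 to 25.5 and 12.5 to 17.7), and in descending fibroblasts *Myh11* and *Lmod1* overlapped between the groups. The 5 endothelial genes summed to 23.9 to 26.9 in control and 4.70 to 11.2 in TGFβ libraries, nearly all of it *Tek* (23.6 to 25.7 and 3.60 to 9.27). *Emcn* was at the floor of 3 counts or fewer in every group, *Pecam1* and *Cdh5* were at most 0.300 and 0.260 in any library, and *Kdr* was at 0 to 0.955 in descending control and 1.23 to 1.61 in descending TGFβ libraries. Other lists differed by site or treatment. The 3 pericyte genes, nearly all of it *Rgs5*, summed to 4.21 to 11.4 in descending control, 40.5 to 44.7 in descending TGFβ, 6.13 to 7.45 in ascending control and 16.9 to 20.2 in ascending TGFβ libraries. The 2 adipocyte genes summed to 19.5 to 25.7 in control and 7.95 to 15.1 in TGFβ libraries of the descending site, and to 0.731 to 3.40 and 0.0473 to 0.418 of the ascending site. The 4 mesothelial genes summed to 6.9 to 13.1 and 12.3 to 13.9 at the descending and to 32.9 to 42.7 and 19.6 to 26.5 at the ascending site, where *Upk3b* made up most of it, while *Krt19* was lower than at the descending site and *Wt1* was at the floor. The 3 cardiomyocyte genes, nearly all of it *Tnnt2* with *Myh6* at 0, summed to 0.311 to 1.03 and 1.03 to 1.47 at the descending and to 5.85 to 7.75 and 3.27 to 3.70 at the ascending site. The 4 glial genes, most of it *S100b*, summed to 14.8 to 24.8 and 10.8 to 12.2 at the descending and to 21.4 to 25.9 and 14.9 to 15.7 at the ascending site, and of them *Sox10* was at 0 in the descending libraries and at 1.70 to 2.88 in the ascending ones. The 5 macrophage genes summed to 51.1, 340.9 and 56.1 in ascending control and 28.4 to 40.3 in ascending TGFβ libraries, and to 25.5 to 44.9 and 13.5 to 25.8 in the descending ones. The part of these cells in the changes below was not tested. In RNA from whole cultures, fewer cells of a type and less RNA per cell cannot be told apart.

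RefSeq promoter sequences (GRCm38.p6) were found for 8 of the 10 genes, in 12 windows. *Tgfb3* and *Tgfbr3* had no entry. In each window the 250 bases before the transcript start, cut short where they ran into an annotated exon of the gene, were searched for the SMAD box CAGAC or its reverse complement GTCTG, the AP-1 site TGANTCA, the GC box GGGCGG and the TATA box TATAAA, each on both strands. The 4 windows below are shown because their genes stand for the main patterns of change with TGFβ. *Tgfb1* is the ligand that rose at both sites. *Tgfb2* passed in ascending fibroblasts, and in descending ones without control replicate 3. *Ltbp2* is the LTBP that rose most and *Tgfbr2* the signalling receptor that fell. The windows are written 5′ to 3′ on the strand of the gene, with SMAD boxes in capitals. The first is chr7:25686752-25687001 on the plus strand, the second chr1:186705990-186706239, the third chr12:84876533-84876741 and the last chr9:116175364-116175613, these 3 on the minus strand.
Tgfb1: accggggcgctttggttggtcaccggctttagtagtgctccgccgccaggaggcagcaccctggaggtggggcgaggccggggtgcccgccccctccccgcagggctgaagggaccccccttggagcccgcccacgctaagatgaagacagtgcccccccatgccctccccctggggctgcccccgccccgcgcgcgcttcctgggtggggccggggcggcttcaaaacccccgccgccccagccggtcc
Tgfb2: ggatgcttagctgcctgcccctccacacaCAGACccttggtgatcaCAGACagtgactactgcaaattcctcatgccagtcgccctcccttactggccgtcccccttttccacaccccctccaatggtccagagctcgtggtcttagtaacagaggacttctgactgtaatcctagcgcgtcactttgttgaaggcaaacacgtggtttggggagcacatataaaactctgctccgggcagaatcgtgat
Ltbp2: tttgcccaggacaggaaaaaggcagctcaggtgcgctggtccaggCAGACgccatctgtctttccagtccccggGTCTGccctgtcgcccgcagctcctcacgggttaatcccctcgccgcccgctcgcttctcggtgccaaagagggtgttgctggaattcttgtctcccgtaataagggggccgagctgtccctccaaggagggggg
Tgfbr2: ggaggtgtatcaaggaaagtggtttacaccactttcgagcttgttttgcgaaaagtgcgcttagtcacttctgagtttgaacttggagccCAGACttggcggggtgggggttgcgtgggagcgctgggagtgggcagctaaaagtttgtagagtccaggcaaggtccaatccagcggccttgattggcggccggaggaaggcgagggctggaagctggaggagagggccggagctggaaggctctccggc

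The window of *Tgfb1* held no SMAD box and 5 GC boxes, and 75.2% of its bases were G or C, where the median over 32851 promoters of 250 bases was 52.4%. The window of *Tgfb2* held SMAD boxes that began 221 and 204 bases before the start and a TATA box 31 bases before it. Those of *Ltbp2* began 205 and 176 bases before the start, and the single one of *Tgfbr2* 160 bases before it. A SMAD box was found in 7 of the 12 windows and in 6 of the 8 genes (*Tgfb2*, *Tgfbr1*, *Tgfbr2*, *Ltbp1*, *Ltbp2* and *Ltbp3*), and 42.2% of all promoters hold one. No window held the AP-1 site, which 6.75% of all promoters hold. GC boxes were in 6 of the 12 windows (4 genes) and in 32.7% of all promoters, and the TATA box in 1 of the 12 and in 12.4%. The window of *Ltbp2* (209 bases) and 2 of the 3 of *Ltbp4* (170 and 235) are shorter than the 250 bases of those promoters, and windows of 1 gene can overlap. A match describes letters only, and genes with and without a SMAD box were found among those that rose.

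In ascending fibroblasts 7 of the 10 genes rose with TGFβ and 2 fell. *Ltbp2*, *Tgfb1* and *Ltbp1* rose most, by 7.83-fold, 2.64-fold and 2.18-fold, and *Tgfbr3* and *Tgfbr2* fell. A gene was called changed at an adjusted p under 0.05 in edgeR's two-sided quasi-likelihood F-test, with Benjamini-Hochberg adjustment over all genes tested, and 55.8% of the 13917 genes tested were called in ascending fibroblasts (28.2% up and 27.6% down). In 1 edgeR fit over the 12 libraries *Tgfb2*, *Tgfbr1*, *Ltbp3* and *Ltbp4* did not pass there (adjusted p 0.295, 0.45, 0.0637 and 0.213). That fit takes its spread from all 12 libraries, descending control replicate 3 among them. DESeq2 and limma's voom with sample weights each called 9 of the 10 in ascending fibroblasts. The median absolute log2 fold change was 0.76 over the 10 genes and 0.28 over all genes tested. In descending fibroblasts 4 of the 10 genes rose (*Ltbp2*, *Tgfb1*, *Ltbp1* and *Tgfb3*) and the same 2 receptors fell, where 8.07% of 13825 genes were called (3.59% up and 4.48% down). Without descending control replicate 3 all 10 were called there, 8 up and 2 down, where 52.9% of 14311 genes were (26.6% up and 26.3% down). Without any 1 of the 3 descending TGFβ libraries only 2 or 3 of the 10 passed, among them *Tgfb1* and *Tgfbr3*, while *Tgfb3*, *Tgfbr2* and *Ltbp2* had adjusted p values of 0.0649 to 0.0988. *Ltbp1* was at 0.0515 without descending TGFβ replicate 3, and *Tgfbr2* at 0.0543 without descending control replicate 2. The control and TGFβ libraries of the 2 sites are separate, while each site comparison below shares its libraries with these.

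**Figure D1:**
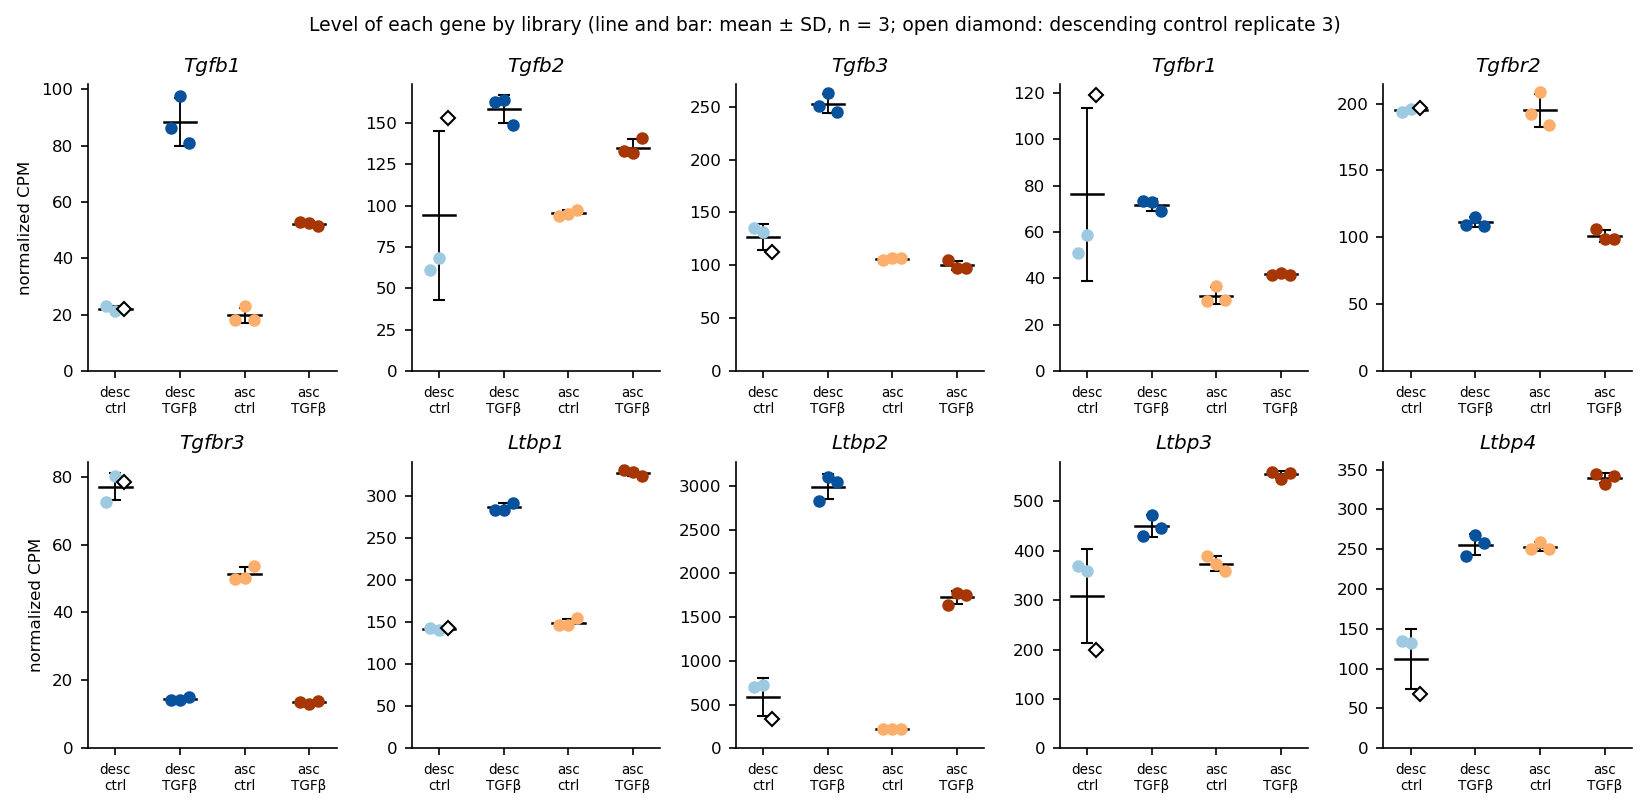
Level of each of the 10 genes in each library, in normalized CPM on a linear axis from 0, by group (desc, descending; asc, ascending; ctrl, control). Points are libraries, the line and bar are the mean and SD of 3, and the open diamond is descending control replicate 3, which lies far from the other descending controls for *Tgfb2*, *Tgfbr1*, *Ltbp2*, *Ltbp3* and *Ltbp4*.

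Among the ligands, *Tgfb1* rose at both sites and *Tgfb3* rose in descending fibroblasts. *Tgfb2* rose in ascending fibroblasts and had a larger log2 fold change in descending ones. The latter did not pass in the main fit but did without control replicate 3. *Tgfb1* (chromosome 7, 25687002 to 25705077, plus strand, GRCm38) encodes TGFβ1, the isoform most studied in fibrosis. It was at 23.0, 21.3 and 22.1 normalized CPM in descending control, 86.4, 97.7 and 81.1 in descending TGFβ, 18.1, 22.9 and 18.2 in ascending control and 53.0, 52.5 and 51.4 in ascending TGFβ libraries. The TGFβ libraries lay above all controls, and the descending TGFβ libraries above the ascending ones without overlap. The log2 fold change with TGFβ was 1.40 (SE 0.07, adjusted p 5.86e-11) in ascending and 1.99 (SE 0.13, adjusted p 0.00156) in descending fibroblasts. Without descending control replicate 3 the latter was 2.00 (SE 0.08). The highest ascending control value belonged to replicate 2, the library with the macrophage sum of 340.9, and without it the ascending change was 1.52 (SE 0.07). That library was also the highest ascending control for *Tgfbr1* (36.6), *Tgfbr2* (208.7), *Ltbp2* (220.3) and *Ltbp4* (259.3). The part of those cells was not tested.

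*Tgfb2* (chromosome 1, 186622792 to 186705989, minus strand) encodes TGFβ2, the isoform that depends most on TGFBR3 for binding. It was at 61.4, 68.2 and 152.8 in descending control, 163.0, 164.0 and 148.7 in descending TGFβ, 93.8, 95.2 and 97.7 in ascending control and 133.0, 131.8 and 140.8 in ascending TGFβ libraries, in normalized CPM. Descending control replicate 3 overlapped the TGFβ libraries and the other descending controls did not. In ascending fibroblasts *Tgfb2* rose by a log2 fold change of 0.50 (SE 0.04, adjusted p 1.62e-08). The descending log2 fold change was 0.74 (SE 0.37, adjusted p 0.295) over 6 libraries and 1.29 (SE 0.06, adjusted p 2.46e-17) without replicate 3.

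*Tgfb3* (chromosome 12, 86056745 to 86079041, minus strand) encodes TGFβ3, and 8.79% of the 50-base sequences of its exons also occur in other genes, most of them in the overlapping transcript *Gm48008*, which had at most 7 counts. It was at 135.6, 131.2 and 112.5 in descending control and rose to 250.5, 262.6 and 245.2 with TGFβ, in normalized CPM. In ascending fibroblasts it was at 104.6, 106.5 and 106.7 in control and 105.1, 97.9 and 97.5 in TGFβ libraries. The descending groups stood clear of each other, the ascending groups overlapped, and every ascending library lay under every descending one. The log2 fold change was 0.99 (SE 0.12, adjusted p 0.00791) in descending and -0.09 (SE 0.04, adjusted p 0.0913) in ascending fibroblasts. The descending value was 0.92 (SE 0.05) without control replicate 3, and the ascending one passed, at -0.12 (adjusted p 0.0356), without TGFβ replicate 1.

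Of the receptors, *Tgfbr2* and *Tgfbr3* fell at both sites. *Tgfbr1* rose by a small amount in ascending fibroblasts, and in descending ones without control replicate 3. *Tgfbr3* (chromosome 5, 107106570 to 107289629, minus strand), the co-receptor betaglycan, was at 72.6, 80.2 and 78.3 normalized CPM in descending control and at 49.96, 50.2 and 53.6 in ascending control. With TGFβ it fell to 14.3, 14.4 and 15.2 in descending and to 13.6, 13.1 and 13.8 in ascending libraries. The 2 sites were apart in control and close to each other after TGFβ, with the lowest descending value still above the highest ascending one. *Tgfbr3* fell by 2.40 on the log2 scale in descending (SE 0.12, adjusted p 0.000905) and by 1.93 in ascending fibroblasts (SE 0.06, adjusted p 5.62e-14), the former being -2.38 (SE 0.08) without control replicate 3.

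*Tgfbr2* (chromosome 9, 116084293 to 116175360, minus strand), the receptor that binds free ligand, was level between the sites in control. Its normalized CPM were 193.4, 195.9 and 196.4 in descending control, 109.5, 115.5 and 108.5 in descending TGFβ, 192.0, 208.7 and 183.9 in ascending control and 106.4, 98.8 and 98.5 in ascending TGFβ libraries. All TGFβ libraries lay far under all controls. It fell by 0.95 on the log2 scale in ascending (SE 0.05, adjusted p 3.32e-11) and by 0.82 in descending fibroblasts (SE 0.10, adjusted p 0.00871), and the latter was -0.81 (SE 0.05) without control replicate 3.

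*Tgfbr1* (chromosome 4, 47353222 to 47414931, plus strand), the kinase that signals to the SMADs, was at 50.9, 58.8 and 119.2 in descending control, 73.2, 73.1 and 68.9 in descending TGFβ, 30.2, 36.6 and 30.6 in ascending control and 41.5, 42.4 and 41.7 in ascending TGFβ libraries, in normalized CPM. Apart from replicate 3 of descending control, the TGFβ libraries of each site lay above its controls. In ascending fibroblasts *Tgfbr1* rose by a log2 fold change of 0.36 (SE 0.07, adjusted p 0.00021). The descending log2 fold change was -0.10 (SE 0.34, adjusted p 0.891) with replicate 3 and 0.39 (SE 0.07, adjusted p 9.24e-06) without it, so that 1 library turned its direction.

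All 4 LTBP genes rose in ascending fibroblasts, and *Ltbp1* and *Ltbp2* also in descending fibroblasts. *Ltbp3* and *Ltbp4* had positive changes there too, which passed without control replicate 3 but not in the main fit. *Ltbp2* (chromosome 12, 84783212 to 84876532, minus strand) encodes an LTBP that binds fibrillin but, unlike the others, does not carry latent TGFβ. It was at 698.2, 719.5 and 333.7 in descending control, 2832, 3097 and 3043 in descending TGFβ, 219.3, 220.3 and 219.4 in ascending control and 1642, 1777 and 1758 in ascending TGFβ libraries, in normalized CPM. The 4 groups did not overlap, and descending libraries were the higher ones under both treatments. The ascending log2 fold change of *Ltbp2* was 2.97 (SE 0.03, adjusted p 2.43e-19), the third smallest p of the 13917 genes and the 157th largest absolute change. In descending fibroblasts it rose by 2.35 (SE 0.31, adjusted p 0.0101), or by 2.08 (SE 0.05, adjusted p 4.53e-24) without control replicate 3. Its exons overlap the antisense transcript *D030025P21Rik* over 764 bases, 9.34% of their length, and that transcript had at most 73 counts in a library. Whether counting used the strand is not given in the sources used here.

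*Ltbp1* (chromosome 17, 75005568 to 75392512, plus strand), the LTBP first found in latent TGFβ complexes, rose at both sites with little spread between libraries. It was at 142.7, 140.3 and 142.8 normalized CPM in descending control, 284.2, 284.2 and 292.4 in descending TGFβ, 147.0, 147.0 and 154.7 in ascending control and 331.2, 328.3 and 323.8 in ascending TGFβ libraries. Controls and TGFβ libraries were far apart, and here replicate 3 sat with its group. The log2 fold change was 1.13 (SE 0.03, adjusted p 3.11e-14) in ascending and 1.01 (SE 0.10, adjusted p 0.0041) in descending fibroblasts, or 1.02 (SE 0.05) without control replicate 3.

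*Ltbp3* (chromosome 19, 5740904 to 5758532, plus strand), which also carries latent TGFβ, was at 368.5, 359.3 and 199.2 in descending control, 429.9, 472.8 and 446.9 in descending TGFβ, 389.3, 373.7 and 359.2 in ascending control and 559.6, 545.6 and 557.8 in ascending TGFβ libraries, in normalized CPM. TGFβ libraries lay above controls at both sites. The ascending log2 fold change of *Ltbp3* was 0.56 (SE 0.03, adjusted p 1.81e-10). The descending log2 fold change was 0.54 (SE 0.25, adjusted p 0.259) with control replicate 3 and 0.31 (SE 0.05, adjusted p 5.91e-06) without it.

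*Ltbp4* (chromosome 7, 27305136 to 27337692, minus strand), known for its part in elastic fibre assembly, was at 134.7, 132.6 and 68.1 normalized CPM in descending control, 241.2, 267.7 and 257.3 in descending TGFβ, 249.6, 259.3 and 249.8 in ascending control and 343.9, 332.3 and 342.4 in ascending TGFβ libraries. The ascending controls lay within the range of the descending TGFβ libraries. Its ascending log2 fold change was 0.42 (SE 0.03, adjusted p 5.95e-09). The descending log2 fold change was 1.19 (SE 0.27, adjusted p 0.0551) with control replicate 3 and 0.94 (SE 0.05, adjusted p 3.62e-15) without it. It passed in 7 of 13 alternatives, 6 of them on all libraries of the comparison, with DESeq2 (adjusted p 0.000701) and the fit over 12 libraries (0.00183) among them, and the adjusted p values of all 13 ran from 3.62e-15 to 0.223.

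**Figure D2:**
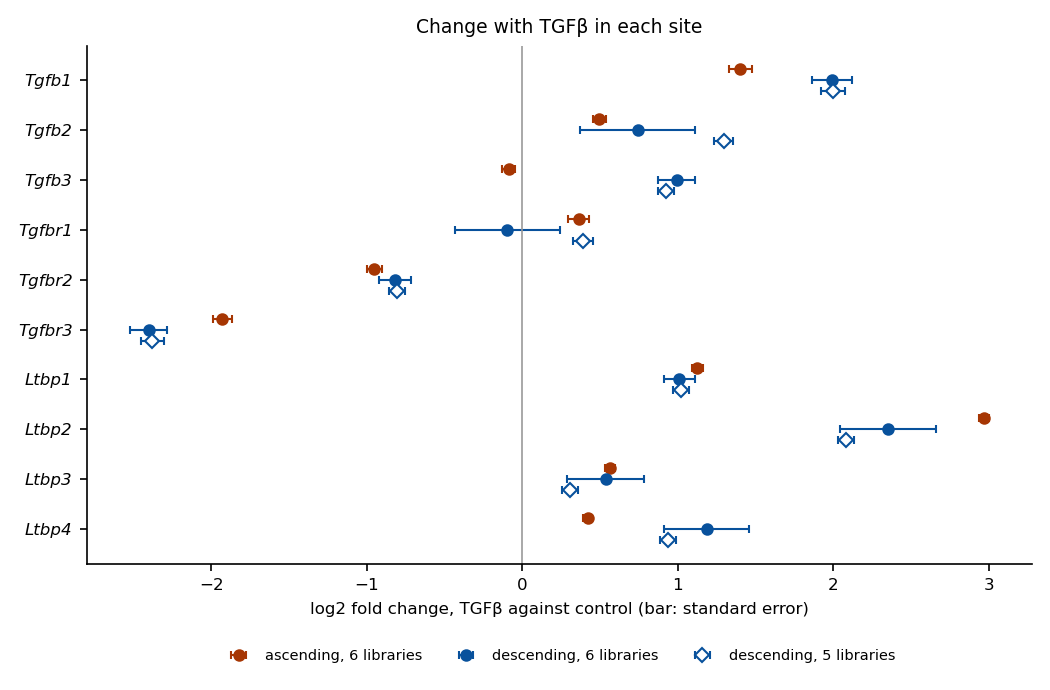
Log2 fold change with TGFβ of each gene at each site, with its standard error, from edgeR. Filled symbols use 6 libraries a site and open diamonds 5, without descending control replicate 3, and the wide bars of *Tgfb2*, *Tgfbr1*, *Ltbp2*, *Ltbp3* and *Ltbp4* in descending fibroblasts narrow without that library.

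Levels were compared between genes per length, as normalized RPKM (normalized CPM per kilobase of the gene's merged exons). *Ltbp2* had the highest level of the 10 in descending control (71.3 ± 26.5, SD, n = 3, or 86.6 without replicate 3), descending TGFβ (365 ± 17.1) and ascending TGFβ (211 ± 8.93). In ascending control *Ltbp3* (41.2 ± 1.66) and *Ltbp4* (39.1 ± 0.864) came first, with overlapping ranges of mean ± SD, followed by *Tgfb3* (31.3 ± 0.337) and *Ltbp2* (26.8 ± 0.0718), an order that turned with the longest transcript as length (31.3 and 32.5). *Tgfbr3* was the lowest under TGFβ at both sites, at 2.24 ± 0.0792 in descending and 2.06 ± 0.0546 in ascending fibroblasts. *Tgfb1* was the lowest in both controls, at 4.39 ± 0.165 and 3.92 ± 0.548, but at 8.60 and 7.68 with the length of its longest transcript (2573 bases in place of 5042), where *Tgfbr1*, at 5.64, was the lowest in ascending control.

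At the descending site the summed LTBP level was 136 ± 42.7 RPKM without TGFβ (161 when replicate 3 is left out) and 481 ± 21.4 with TGFβ, and at the ascending site 121 ± 1.45 without and 355 ± 7.50 with TGFβ (SD, n = 3). *Ltbp2* made up 53.3%, 54.5% and 47.1% of that sum in the descending control libraries and 75.9% ± 0.242 in descending TGFβ. In ascending fibroblasts its share went from 22.1% ± 0.247 to 59.4% ± 1.30. The share of *Ltbp4* fell over the same step from 32.3% ± 0.632 to 14.8% ± 0.526, although its own level rose.

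The summed ligand level was 58.0 ± 5.22 RPKM in descending control (55.0 when replicate 3 is left out) and 119.6 ± 5.55 with TGFβ, against 51.7 ± 0.910 and 63.3 ± 1.22 in ascending fibroblasts. *Tgfb3* held the largest ligand share in every group, at 62.5% ± 0.835 in descending TGFβ and 46.8% ± 1.32 in ascending TGFβ libraries. In ascending TGFβ this order depended on the length used, since with coding lengths *Tgfb2* held 44.8% and *Tgfb3* 35.6%. *Tgfb1* was the smallest share in each group by merged exon length, but with the longest transcript it held 24.5% against 22.1% for *Tgfb2* in descending TGFβ. Its share moved from 7.60% ± 0.699 to 14.6% ± 0.729 at the descending site and from 7.56% ± 0.962 to 16.4% ± 0.353 at the ascending site.

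The summed receptor level moved from 47.3 ± 6.13 (43.8 when replicate 3 is left out) to 26.8 ± 0.679 RPKM at the descending site and from 36.6 ± 1.88 to 20.8 ± 0.515 at the ascending site. *Tgfbr2* was the largest share in every group. The share of *Tgfbr1* was 18.3%, 19.9% and 33.7% in the descending controls and 41.0% ± 0.797 with TGFβ, and in ascending fibroblasts it went from 13.6% ± 0.804 to 30.8% ± 0.997. *Tgfbr3* moved from 25.1% ± 2.67 to 8.35% ± 0.487 and from 21.4% ± 1.70 to 9.91% ± 0.308. These shares describe the RNA and were not tested.

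**Figure D3:**
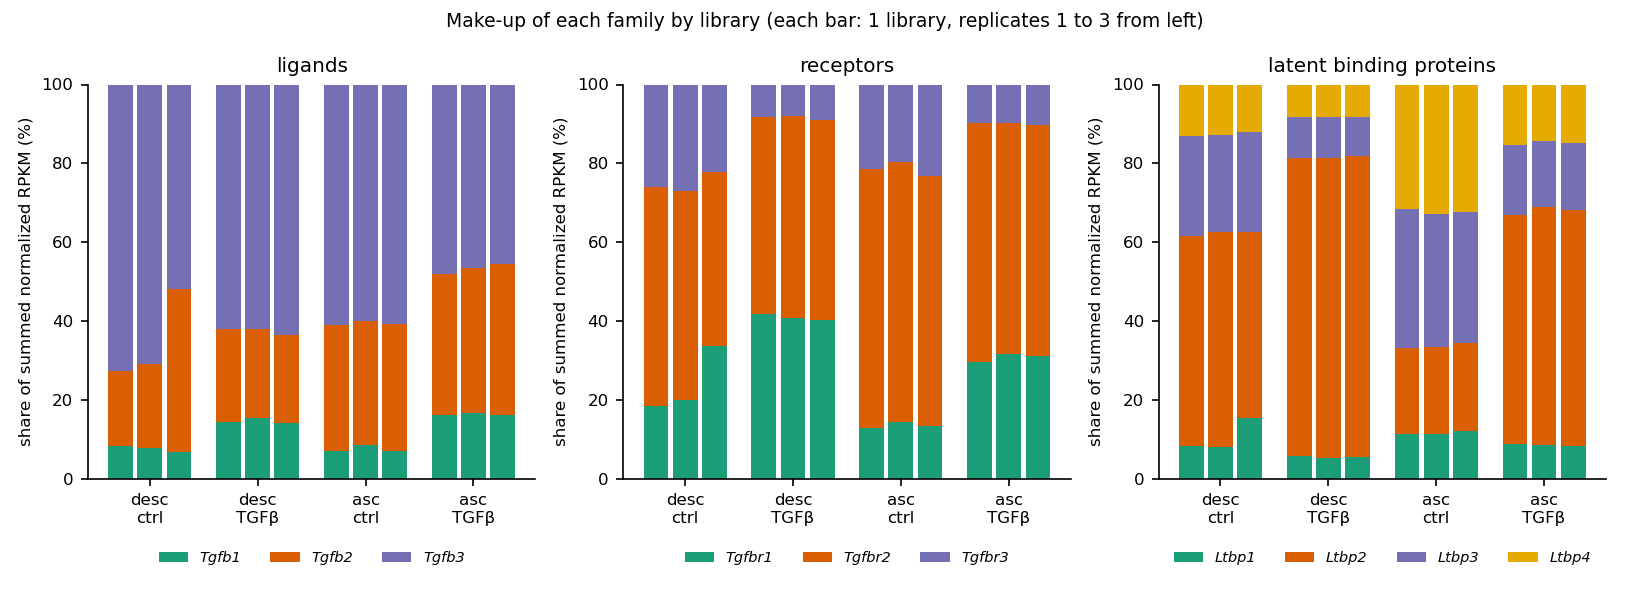
Share of each gene in the summed normalized RPKM of its family, in percent, with 1 bar per library and replicates 1 to 3 from left in each group. *Ltbp2* takes 75.7% to 76.2% of the LTBP sum in descending TGFβ libraries and 21.9% to 22.4% in ascending control libraries.

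The sites were then compared within each treatment, with positive values for higher levels in ascending fibroblasts. In TGFβ 9 of the 10 genes differed, with *Ltbp4*, *Ltbp3* and *Ltbp1* higher and *Tgfb3*, *Ltbp2*, *Tgfbr1*, *Tgfb1*, *Tgfb2* and *Tgfbr2* lower in ascending fibroblasts, where 36.3% of 13678 genes differed (edgeR, 18.1% higher and 18.2% lower). All 3 ligands were thus lower in ascending TGFβ than in descending TGFβ libraries. The log2 differences were -1.33 for *Tgfb3* (SE 0.04, adjusted p 1.96e-20), -0.75 for *Tgfb1* (SE 0.06, adjusted p 4.2e-12) and -0.23 for *Tgfb2* (SE 0.04, adjusted p 0.000131). Of the receptors, *Tgfbr1* was at -0.78 (SE 0.05, adjusted p 2.93e-13) and *Tgfbr2* at -0.13 (SE 0.04, adjusted p 0.0203). *Tgfbr2* no longer passed without descending TGFβ replicate 2 (adjusted p 0.0751) or without ascending TGFβ replicate 2 or 3 (0.101 and 0.114). *Tgfbr3* did not pass the test, at -0.11 (SE 0.09, adjusted p 0.36). *Ltbp2* was at -0.79 (SE 0.04, adjusted p 2.54e-16), against 0.41 for *Ltbp4*, 0.30 for *Ltbp3* and 0.19 for *Ltbp1*, each with an SE of 0.04. In 1 edgeR fit over the 12 libraries, descending control replicate 3 among them, only *Tgfb3* and *Tgfb1* of these 9 passed. The adjusted p values were 0.0618 for *Ltbp2*, 0.0961 for *Ltbp1* and 0.119 for *Tgfbr1*. Those of *Ltbp4*, *Tgfbr2*, *Ltbp3* and *Tgfb2* were 0.378, 0.461, 0.565 and 0.944. DESeq2 and limma's voom with sample weights each called 9 of the 10, and each library left out in turn left 8 or 9.

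In control none of the 10 genes passed edgeR's test between the sites, where 2.65% of 14090 genes did (1.19% higher and 1.47% lower in ascending). An unadjusted p under 0.05 was reached by 4 of them, and the same number was called by DESeq2. These were *Tgfbr1* at -1.23 (SE 0.35, adjusted p 0.196), *Tgfbr3* at -0.58 (SE 0.11, adjusted p 0.0601), *Ltbp2* at -1.40 (SE 0.30, adjusted p 0.0861) and *Ltbp4* at 1.18 (SE 0.27, adjusted p 0.108). Without descending control replicate 3 edgeR called 6 of the 10, where 31.6% of 14644 genes were called (16.4% higher and 15.2% lower). *Ltbp2* was then at -1.68 (SE 0.04, adjusted p 7.58e-13), *Tgfbr1* at -0.74 (SE 0.09, adjusted p 1.28e-05) and *Tgfbr3* at -0.56 (SE 0.06, adjusted p 7.84e-06). *Tgfb3* was lower in ascending fibroblasts by this fit too, at -0.32 (SE 0.05), while *Ltbp4* (0.93, SE 0.04) and *Tgfb2* (0.57, SE 0.06) were higher. The higher level of *Tgfb2* in ascending control passed without that library and, among the alternatives on all libraries, by limma's voom with sample weights (0.55, SE 0.06). *Tgfb1* was at -0.16 (SE 0.15, adjusted p 0.645) with and -0.16 (SE 0.10, adjusted p 0.284) without it.

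**Figure D4:**
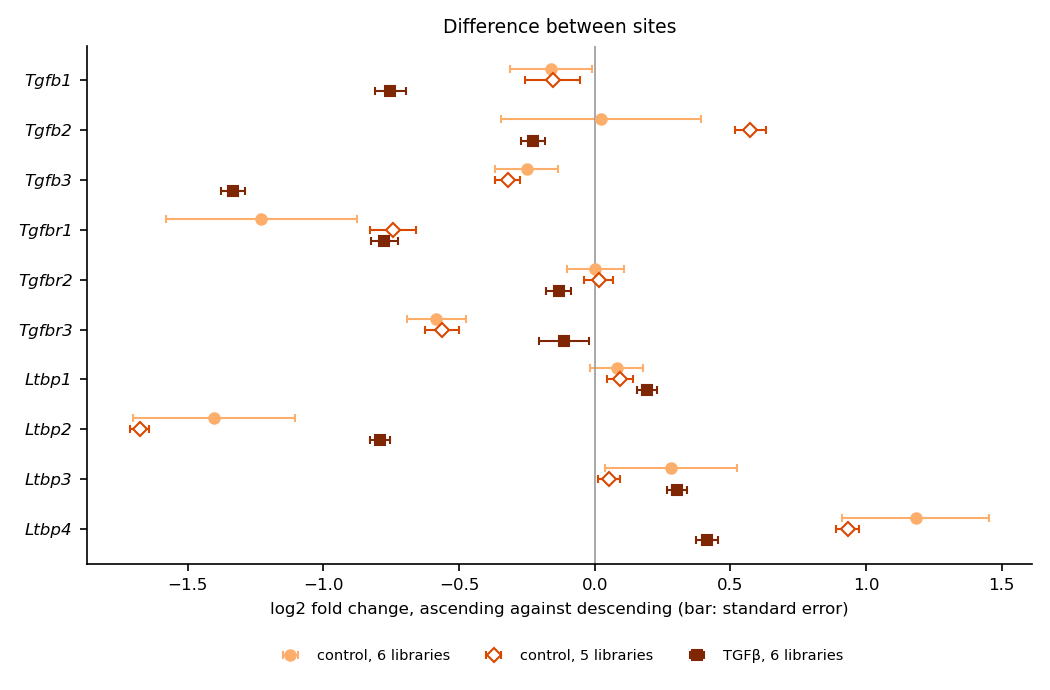
Log2 difference between ascending and descending fibroblasts for each gene, with its standard error, from edgeR. Circles are control (6 libraries), open diamonds control without descending control replicate 3 (5 libraries) and squares TGFβ (6 libraries), and *Tgfb1* and *Tgfb3* lie further from 0 in TGFβ (-0.75 and -1.33) than in control (-0.16 and -0.25).

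The interaction of site and TGFβ tests the difference between the responses directly, over all 12 libraries, with negative values where the change was less positive in ascending fibroblasts. Only *Tgfb3* of the 10 genes passed, at -1.08 (SE 0.12, adjusted p 0.00411), where 0.806% of 14637 genes did in edgeR (0.321% positive and 0.485% negative). It had the 7th smallest p of those genes. It passed in all 18 alternatives run, with values from -1.13 to -1.01 and adjusted p values from 1.46e-21 to 0.0251. The other 9 genes did not pass, and *Tgfb1* was at -0.59 (SE 0.16, adjusted p 0.147), *Tgfbr3* at 0.47 (SE 0.11, adjusted p 0.103) and *Ltbp4* at -0.77 (SE 0.29, adjusted p 0.388), each with an unadjusted p under 0.05. DESeq2 on the same 12 libraries called *Tgfb1* (adjusted p 0.0134) and *Tgfbr3* (adjusted p 0.00902) as well as *Tgfb3*, and limma's voom with sample weights also called both. The value of *Tgfb2* was -0.25 (SE 0.39, adjusted p 0.773).

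Without descending control replicate 3 the interaction of 7 of the 10 genes passed, 3 positive and 4 negative, where 13.5% of 15013 genes did (6.07% positive and 7.4% negative). All 3 ligands were then on the negative side, at -1.01 for *Tgfb3* (SE 0.06, adjusted p 3.6e-11), -0.79 for *Tgfb2* (SE 0.07, adjusted p 2.58e-08) and -0.59 for *Tgfb1* (SE 0.12, adjusted p 0.000996). *Ltbp4* was negative as well, at -0.51 (SE 0.06, adjusted p 8.66e-07). *Ltbp2* was at 0.89 (SE 0.05, adjusted p 3.39e-11), *Tgfbr3* at 0.46 (SE 0.10, adjusted p 0.00196) and *Ltbp3* at 0.26 (SE 0.06, adjusted p 0.00268). For *Tgfbr1*, *Tgfbr2* and *Ltbp1* the values were -0.03 (SE 0.10), -0.14 (SE 0.07) and 0.11 (SE 0.05), none of which passed. Leaving out replicate 2 of ascending control, the library with the high macrophage sum, left *Tgfb1* at -0.47 (SE 0.14, adjusted p 0.322) over 11 libraries.

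**Figure D5:**
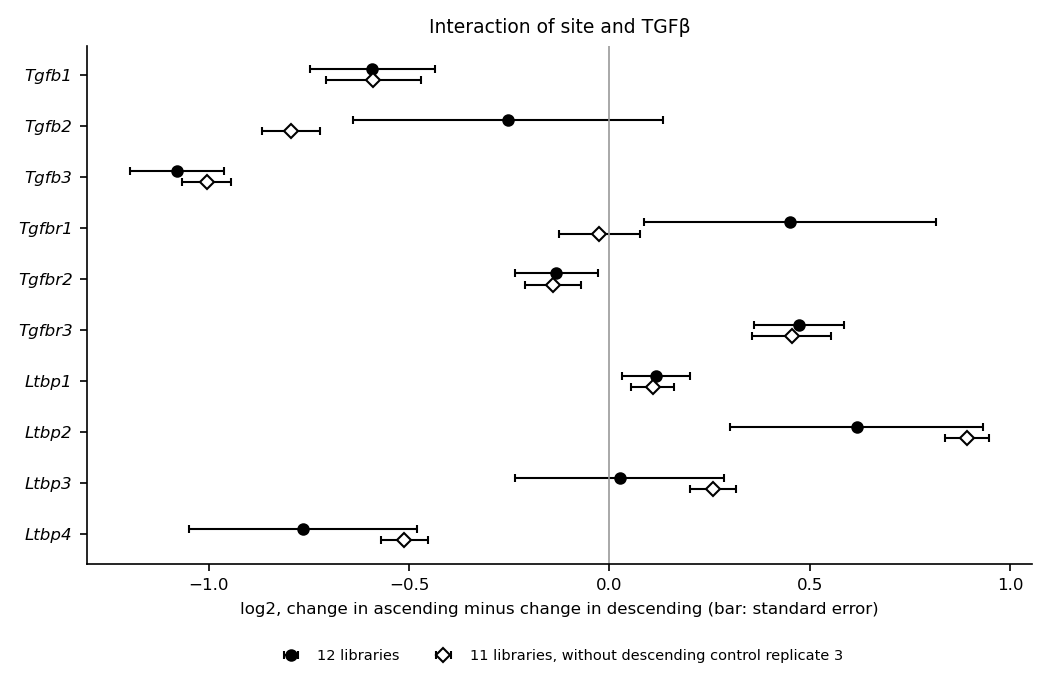
Interaction of site and TGFβ for each gene on the log2 scale (the change in ascending minus the change in descending fibroblasts), with its standard error, from edgeR. Filled circles use 12 libraries and open diamonds 11, without descending control replicate 3, and *Tgfb3* lies at -1.08 and -1.01 in the 2 fits.

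Other genes of the pathway were taken from 4 lists. Their counts stand against 55.8% of all genes called in ascending (28.2% up and 27.6% down), 8.07% in descending fibroblasts (3.59% up and 4.48% down) and 52.9% there without control replicate 3, and no list was tested as a set. Of 18 genes of latency and activation, 12 rose and 3 fell in ascending fibroblasts, and 3 rose and 1 fell of the 16 tested in descending fibroblasts (9 and 3 of 17 without descending control replicate 3). *Itgb5*, an integrin chain that pairs with *Itgav*, rose from 350 ± 5.59 to 818 ± 5.48 normalized CPM at the ascending site (SD, n = 3) and from 198 ± 71.6 to 700 ± 28.7 at the descending site, by 1.22 (SE 0.03) and 1.82 (SE 0.29) on the log2 scale. *Itgb8*, whose product activates latent TGFβ with the αv chain, fell by 1.07 (SE 0.15) in ascending and fell by 2.01 (SE 0.32) in descending fibroblasts. *Tgm2*, the transglutaminase that crosslinks matrix proteins including LTBP1, was at 66.3 ± 1.07 in ascending and 12.1 ± 6.15 in descending control, and at 130 ± 9.47 and 140 ± 9.99 with TGFβ. Its descending log2 fold change was 3.52 (SE 0.45, adjusted p 0.00977), and its interaction was -2.55 (SE 0.44, adjusted p 0.0254). Without ascending control replicate 2 the interaction of *Tgm2* had an adjusted p of 0.0757. Without descending control replicate 3 the descending changes were 1.55 for *Itgb5*, -2.16 for *Itgb8* and 3.17 for *Tgm2*.

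*Mmp9*, a gelatinase, had 0, 1 and 3 counts in ascending control and 36, 51 and 47 in ascending TGFβ libraries, and was called there. Its ascending control counts were at the floor of 3 or fewer, so *Mmp9* passed the filter on low counts through its TGFβ libraries alone. The call is among those counted above as risen in ascending fibroblasts. In descending fibroblasts *Mmp9* had 1, 7 and 0 counts in control and 3, 0 and 7 with TGFβ, and its change there was not tested. *Nrros*, which holds latent TGFβ1 on myeloid cells, had 79 counts in the ascending control library with the high macrophage sum and 18 and 12 in the other ascending controls. Its log2 fold change in ascending fibroblasts was -1.65 (SE 0.60, adjusted p 0.0291) and, without that library, -0.30 (SE 0.48, adjusted p 0.629).

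Of 13 receptor partners and regulators, 6 rose and 3 fell in ascending fibroblasts (55.8% of all genes called), while 1 fell and none rose in descending fibroblasts (8.07% of all genes), or 6 and 2 without control replicate 3 (52.9%). The descending share was near that of all genes. *Acvrl1*, the type I receptor ALK1, fell by 1.09 (SE 0.05) and *Acvr1*, the type I receptor ALK2, rose by 0.75 (SE 0.05) on the log2 scale in ascending fibroblasts. *Dab2*, an endocytic adaptor of the receptors, fell by 0.65 (SE 0.05) in ascending and fell by 1.61 (SE 0.36, adjusted p 0.0498) in descending fibroblasts, the latter being -1.10 without control replicate 3.

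Of 12 SMADs and feedback genes, 6 rose and 4 fell in ascending and 3 rose and 1 fell in descending fibroblasts, or 5 and 3 without control replicate 3, beside 55.8%, 8.07% and 52.9% of all genes. *Pmepa1*, an inhibitor of SMAD signalling, had log2 fold changes of 2.39 (SE 0.04) in ascending and 2.12 (SE 0.12) in descending fibroblasts. *Skil*, which encodes the SMAD repressor SnoN, rose by 1.69 (SE 0.05) and 1.56 (SE 0.26), and *Tgif1*, another SMAD repressor, rose 2.03-fold and 2.30-fold. *Smad3*, the signal carrier itself, fell by 0.82 (SE 0.05) in ascending and fell by 1.25 (SE 0.16) in descending fibroblasts, from 109 ± 4.96 to 61.7 ± 2.21 and from 86.3 ± 15.4 to 36.3 ± 0.784 normalized CPM (SD, n = 3).

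Of 11 measured target genes of TGFβ, 10 rose and 1 fell in ascending fibroblasts, and 6 rose and 1 fell in descending fibroblasts, or 10 and 1 without control replicate 3. Of all genes, 28.2% rose in ascending, 3.59% in descending fibroblasts and 26.6% there without that library. The lists overlap, since *Pmepa1*, *Skil* and *Smad7* are also counted among the feedback genes and *Fn1* among those of latency and activation. *Postn*, which encodes the matrix protein periostin, had an ascending log2 fold change of 2.12 (SE 0.04). Its descending log2 fold change was -0.17 (SE 0.36, adjusted p 0.817), or 0.37 (SE 0.05, adjusted p 1.66e-07) without control replicate 3. The interaction of *Postn* was 2.28 (SE 0.38, adjusted p 0.0228) in edgeR over all libraries and also passed without that library. *Ctgf* (connective tissue growth factor) rose by 1.65 (SE 0.03) and 2.14 (SE 0.14). *Tgfbi*, named for its induction by TGFβ in other cells, fell by 1.62 (SE 0.17) in ascending and fell by 2.56 (SE 0.20) in descending fibroblasts.

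For each of the 10 genes, the genes of most similar pattern over the 4 group medians of log2 CPM were looked up among 14627 others, by the root mean square difference after centring each gene. For *Ltbp2* these were *Tnni3k* (0.147), *Adamts6* (0.186) and *Sertad4* (0.194), which stayed among its nearest 3 in 13, 11 and 10 of 13 alternatives. *Palmd* was nearest to *Tgfb3* (0.0278, kept in 10 of 13), *Adam5* to *Tgfbr3* (0.0595, kept in 10), and *Cdr2* to *Ltbp1* (0.0375, kept in 9). *Cdk5r1* and *Hk2* were nearest to *Tgfb1* (0.0634 and 0.0709, kept in 7 and 6). For *Tgfb2* the nearest, *Kbtbd8* (0.00657), was kept in 1 of 13. The nearest to *Tgfbr1* was *Sipa1l2* (0.0337, kept in 7), to *Tgfbr2* *Pmvk* (0.0317, kept in 7), to *Ltbp3* *Frg2f1* (0.017, kept in 4) and to *Ltbp4* *Tsacc* (0.0508, kept in 2). With 4 points per gene these are descriptions of likeness and nothing more.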

How the data were processed

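Total RNA of 12 cultures was sequenced as paired-end reads. The authors made a single table of counts per gene symbol with featureCounts after alignment to mm10, and deposited it without normalization. The submitters' processing notes name FastQC, STAR, featureCounts and DESeq2 with no version, and strand and multi-mapping settings are not given in the sources used here. The 12 columns were matched to samples by their library names and grouped by the site and treatment in the sample titles. The 10 genes, the pathway lists and the tests were chosen with earlier results of these data known.

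The tests ran in edgeR 4.0.16 under R 4.3.3 (TMM, filterByExpr at its minimum count of 10 and total of 15, quasi-likelihood F-test, Benjamini-Hochberg threshold 0.05), with DESeq2 1.42.0 and limma 3.58.1 as alternatives, and figures were drawn in Python 3.11.15 with matplotlib 3.10.9. Each pair of groups was fitted on its own and the interaction over 12 libraries. Log2 CPM for likeness used a prior count of 2. The standard error is the log2 fold change divided by the square root of F. Of the 54352 symbols, 53753 (98.9%) matched GENCODE vM21 (GRCm38), which gave lengths and coordinates. Named were the 10 genes, and from each pathway list up to 3 called genes per site with the largest absolute change, and for likeness the nearest genes. A few results that these rules would name are not reported here. Library totals of 16250126 to 23892943 put the floor of 3 counts at 0.117 to 0.207 normalized CPM, which covers counting error only. The fits were tested on simulated data. Alternatives were DESeq2's test, its size factors, no filter, at least 10 counts in every library, a replicate block, 1 fit over 12 libraries, voom with sample weights, other gene lengths and each library left out. Whether the numbers of the replicates pair the libraries could not be told.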

Additional observations from a re-analysis of the deposited data

Results flagged for a closer look

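The response of *Tgfb3* to TGFβ differed between the sites. Its interaction was -1.08 on the log2 scale (SE 0.12, adjusted p 0.00411, edgeR over 12 libraries), the change in ascending minus that in descending fibroblasts. All 3 descending TGFβ libraries, at 245.2 to 262.6 normalized CPM, lay above all 3 descending controls, at 112.5 to 135.6. The ascending groups, at 97.5 to 105.1 with TGFβ and 104.6 to 106.7 in control, overlapped. The value was -1.01 (SE 0.06) without descending control replicate 3.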

How the results depend on the processing

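Over the single genes, 607 of 700 alternative values kept their direction and their side of the threshold, 46 newly passed it, 29 no longer passed and 18 changed sign. In ascending fibroblasts 1 fit over the 12 libraries called 5 of the 10 genes with TGFβ, and 2338 genes in all, against 9 and 7767. DESeq2 called 9 and 7015 there, and limma's voom with sample weights 9 and 8035. In descending fibroblasts (6 and 1115) DESeq2 called 7 of the 10 and 2531 genes, that common fit 7 and 3570, and limma's voom with sample weights 10 of the 10 and 7565. Each library left out in turn gave 2 to 10 of the 10 and 213 to 7576 genes, the highest without control replicate 3, and leaving out any 1 TGFβ library left 2 or 3 of the 10. Between the sites in control (0 and 374) DESeq2 called 4 and 1151, the common fit 4 and 1545, voom 6 and 4839, and leaving out 1 library 0 to 6 and 33 to 4631, the highest without descending control replicate 3. Between the sites in TGFβ (9 and 4963) the common fit called 2 and 1106, DESeq2 9 and 4266, and voom 9 and 4895. For the interaction (1 and 118) DESeq2 called 3 and 497, no filter 56 genes, voom 7 and 1979, and leaving out 1 library 1 to 7 and 25 to 2022. The cause of these shifts was not tested.

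The replicate numbers did not pair the libraries, since none of the 12 same-numbered pairs had deviations that correlated over 0.1 (-0.026 to 0.0655). With the replicate block, edgeR called 2 of the 10 and 95 genes for TGFβ in descending fibroblasts, 50 genes for the interaction, and 0 genes between the sites in control, where 1235 had an unadjusted p under 0.05 and DESeq2 without the block called 1151. The block result of *Tgfbr1* with TGFβ in descending fibroblasts was 0.013, against -0.10 without it, 0.36 by voom and -0.31 to 0.39 with 1 library left out.

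*Tgfbr2* between the sites in control was at 0.0018 and crossed 0 with DESeq2 (-0.0032), its size factors (-0.0035), 10 counts in every library (-0.0021), the block (-0.00017), the common fit (-0.0026) and voom (-0.013), and ranged from -0.046 to 0.047 with 1 library left out. With 1 library left out, *Tgfb2* between the sites in control ranged from -0.21 to 0.57 around 0.02, the interaction of *Ltbp3* from -0.12 to 0.26 around 0.03, and that of *Tgfbr1* from -0.025 to 0.67 around 0.45. Family shares moved by more than 1 SD in 30 of 40 values with the longest transcript and 33 of 40 with coding lengths.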
